A study of Macaca fascicularis with 2 samples.

Results

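Axon guidance genes code for secreted or membrane-bound cues and for the receptors that read them. The families described here are the ephrins (EFNA, EFNB) with their EPH receptor kinases (EPHA, EPHB), the semaphorins (SEMA) with the plexins (PLXN) and neuropilins (NRP1 and NRP2), the SLIT proteins with the ROBO receptors, and the netrins (NTN) with the UNC5 receptors. All genes of the table named as a family followed by a number or letter were taken, without regard to their values, which gave 67 members among 18446 genes, 37 of them ligands and 30 receptors. SLITRK genes and the unrelated UNC5CL and UNC50 were left out.

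These proteins were first known for steering growing axons. The same cues are used outside the nervous system, where they control how cells adhere, repel each other, migrate and sort into compartments. Several have established roles in blood vessels: EFNB2 marks arteries and EPHB4 veins, ROBO4 is a vascular ROBO receptor, and the neuropilins also bind VEGF.

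Whole ovaries of fetal crab-eating monkeys (Macaca fascicularis) were dissociated and their RNA measured by droplet single-cell sequencing of 3′ transcript ends. One library came from a fetus at embryonic day 84 (E84) and another from a fetus at E116, each with both ovaries of that fetus, neither with a genetic change or treatment. The table gives unique molecular identifiers (UMIs, counts of captured RNA molecules) per gene and cell, and its barcodes end in 1 or 2 with no key that ties an ending to a stage. The cells therefore count as 1 sample in all, and the endings served as batches with no stage assigned. If the endings divide the libraries, then fetus, stage and library cannot be told apart in a difference between endings. No p-value is given, since cells of 1 animal are not replicates.

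Cells with 200 to 3000 detected genes were retained, 16292 of 20967, with 53250481 UMIs and a median of 2670 UMIs per cell. These limits, taken from the methods of the study, left more cells here than the study counts after them, and the extra cells could not be singled out. Members took 51532 of these UMIs, or 0.0968%. The 4675 cells over 3000 genes held 64.2% of all UMIs of the table, and values in them are given where they bear on a result. Scrublet called 0 doublets in either ending, so none were removed. Of the barcodes, 27 occurred with both endings, 12 of them among retained cells. Clusters, made without the members, were named from marker lists, and "like" marks a name that rests on such a list. There were 4104 germ cell-like, 4094 granulosa-like, 758 ovarian surface epithelium-like (OSE-like), 4046 stroma-like, 121 pericyte-like, 342 endothelial-like, 228 macrophage and lymphocyte-like and 736 erythroid-like cells, beside 1863 unnamed ones. Each marker list was highest in the class named from it. The endothelial list summed to 5016 CPM (the UMIs of a gene or list relative to all UMIs of the class, on the usual CPM scale) in endothelial-like cells and to at most 232 CPM elsewhere. The stroma list summed to 25220 CPM in stroma-like cells but also to 6896 CPM in pericyte-like and 3509 CPM in OSE-like cells.

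Levels are summed UMIs of a class as CPM, with exact 95% Poisson intervals that cover counting error only. They are compared within a gene, across classes, and not between genes, because 3′ counts are not scaled to length or capture. A member is called higher in a class where its level was at least 2 times that in all other retained cells, with 10 CPM added to both sides, among genes with at least 30 UMIs in the cells compared. Of the 67 members 58 reached that minimum. The other 9 had between 0 and 28 UMIs in retained cells: NTN5 with 0 UMIs, UNC5A, NTN3, SEMA6B, EPHA8, EPHB1, NTNG1, SEMA3E and EPHA5. A count of 0 is taken to allow up to 3 counts, which lies below the upper end of the exact 95% interval.

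Of the 58 members, 31, or 53.4%, were called higher in at least 1 class, against 30.4% of all genes tested. In 21 the call was for 1 class and in 10 for 2 classes, and 27 were called nowhere. What differed between classes was how many members and which. Endothelial-like cells had 11 members called, granulosa-like cells 9, stroma-like cells 7, OSE-like and pericyte-like cells 5 each, macrophage and lymphocyte-like cells 3, germ cell-like cells 1 and erythroid-like cells 0.

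**Figure D1:**
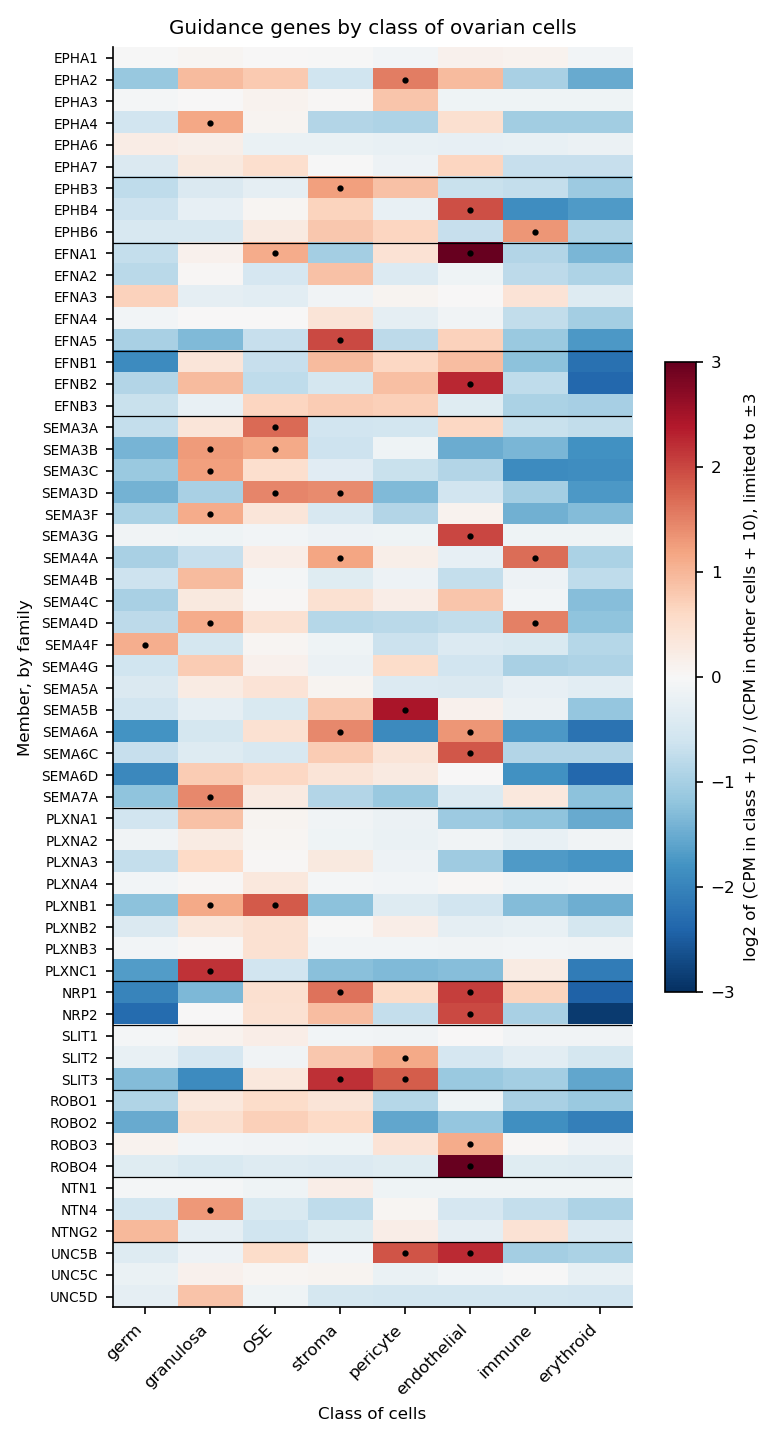
Log2 ratio of the level of each of the 58 members in a class (columns) to that in all other retained cells, 10 CPM added, with rows grouped by family and colours limited to ±3. Dots mark ratios of at least 2-fold; they gather in the endothelial column (11 members) and are absent from the erythroid column. OSE stands for ovarian surface epithelium-like, immune for macrophage and lymphocyte-like cells.

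The summed level of all members was highest in endothelial-like cells, at 2164 CPM (2084–2246). OSE-like cells had 1345 CPM (1304–1387), stroma-like cells 1248 CPM (1230–1266), granulosa-like cells 1189 CPM (1173–1206) and pericyte-like cells 1180 CPM (1080–1287). Stroma-like, granulosa-like and pericyte-like cells lay close together, while macrophage and lymphocyte-like cells had 550 CPM (498–607) and germ cell-like cells 342 CPM (330–354). Erythroid-like cells had 66.6 CPM (58.5–75.5). Erythroid markers took 474915 CPM there, so every other gene had a smaller share, and 28 of 58 members were at least 2-fold lower against 55.5% of all genes. At least 2-fold higher were 0.379% of all genes.

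Endothelial-like cells had 11 members, or 19.0%, at least 2-fold higher, where 5.63% of all genes tested were, and all 11 kept that fold within each barcode ending. They were the ligands EFNA1, EFNB2, SEMA3G, SEMA6A and SEMA6C and the receptors EPHB4, NRP1, NRP2, ROBO3, ROBO4 and UNC5B. Both the artery marker EFNB2 and its vein receptor EPHB4 were among them, in a class that was not divided further.

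ROBO4, the vascular ROBO, stood at 106 CPM (88.9–125) in endothelial-like cells, from 135 UMIs. In germ cell-like cells it was at 0.433 CPM, in stroma-like cells at 0.334 CPM and in granulosa-like cells at 0.288 CPM. OSE-like, pericyte-like, macrophage and lymphocyte-like and erythroid-like cells had 0 UMIs, which allows up to 0.981, 6.95, 4.11 and 0.815 CPM. By barcode ending, the level was 129 CPM (ending 1) and 95.9 CPM (ending 2). With each cell thinned to 1000 UMIs, 10.8% (7.43–14.9) of 288 endothelial-like cells had a ROBO4 UMI and 0 of 643 erythroid-like cells (up to 0.572%), with 54 and 93 cells too shallow to thin. All cells at full depth gave 31% and 0%, where the medians were 3486.5 and 4053 UMIs. Erythroid markers took 474915 CPM in erythroid-like cells, which lowers the share of cells there with a UMI of any other gene.

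SEMA3G, a secreted semaphorin that acts through NRP2, showed the same distribution at a lower level: 30.6 CPM (21.8–41.9) in endothelial-like cells and at most 0.327 CPM in classes where any UMI was seen. Its receptor NRP2 was broader. NRP2 stood at 360 CPM (327–394) in endothelial-like cells, 141 CPM (135–147) in stroma-like, 125 CPM (112–138) in OSE-like and 90.9 CPM (86.5–95.5) in granulosa-like cells, and these levels do not overlap between stroma-like and granulosa-like cells. In germ cell-like cells it was at 13.3 CPM. NRP1, the co-receptor of SEMA3A, followed a similar order, with 247 CPM (221–276) in endothelial-like cells, 119 CPM (113–124) in stroma-like, 94.5 CPM (73.5–120) in macrophage and lymphocyte-like, 88.1 CPM (62.3–121) in pericyte-like, 80.4 CPM (70.7–91.1) in OSE-like and 22.6 CPM (20.4–24.9) in granulosa-like cells. Unlike NRP2 it was called higher in stroma-like cells as well. Its endothelial level differed by barcode ending, with 390 CPM for ending 1 and 185 CPM for ending 2.

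EFNA1, a ligand anchored to the membrane by a lipid, reached 214 CPM (189–241) in endothelial-like cells, followed by OSE-like cells with 47.1 CPM (39.7–55.4). Every other class was at 27.8 CPM or less. Its receptor EPHA2 was highest in another vessel cell class, with 76.5 CPM (52.7–107) in pericyte-like cells from 33 UMIs, ahead of endothelial-like cells with 47.1 CPM (36–60.6), OSE-like cells with 40.2 CPM (33.4–48) and granulosa-like cells with 34.8 CPM (32.0–37.7). The intervals of the last 3 overlap.

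EFNB2, the transmembrane ligand, reached 276 CPM (248–307) in endothelial-like cells, 111 CPM (82.0–148) in pericyte-like and 86.7 CPM (82.4–91.2) in granulosa-like cells. EPHB4, its receptor, stood at 120 CPM (102–141) in endothelial-like and 39.3 CPM (36.2–42.6) in stroma-like cells, and no UMI was seen in macrophage and lymphocyte-like cells (up to 4.11 CPM). Ligand and receptor thus had their highest level in the same class. Whether the same cells held both was not counted.

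UNC5B, a netrin receptor of vessels, stood at 76.9 CPM (62.5–93.8) in endothelial-like and at 62.6 CPM (41.2–91.1) in pericyte-like cells, which do not differ beyond counting error. Its ligand NTN1 was scarce, with 29 UMIs and 1.94 CPM (1.30–2.78) in stroma-like cells and 0 UMIs in endothelial-like and pericyte-like cells, which allows up to 2.36 and 6.95 CPM. Endothelial markers summed to 176 CPM in pericyte-like cells, 7 of 10 of them with a UMI, and the pericyte list to 270 CPM in endothelial-like cells, against 6708 CPM in pericyte-like cells. ROBO4 had 0 UMIs in pericyte-like cells, which allows up to 6.95 CPM. The part of endothelial RNA in the UNC5B level was not tested.

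The remaining endothelial calls were smaller. SEMA6A, a transmembrane semaphorin, stood at 123 CPM (105–144) in endothelial-like and 90.7 CPM (85.9–95.7) in stroma-like cells and was called in both. SEMA6C had 52.6 CPM in endothelial-like against 16 CPM in stroma-like cells. ROBO3, known from axons that cross the midline, was called from 17 UMIs (13.3 CPM, 7.78–21.4), and its ratio fell below 2-fold with no upper limit on genes, where the log2 value was 0.74. Lower by at least 2-fold in endothelial-like cells were 6 members, PLXNA1, PLXNA3, PLXNC1, ROBO2, SEMA3B and SLIT3, against 4.1% of all genes. Among the cells over 3000 genes, 203 were endothelial-like, and ROBO4 stood there at 72.7 CPM, EFNA1 at 201 CPM, EFNB2 at 374 CPM and UNC5B at 164 CPM.

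**Figure D2:**
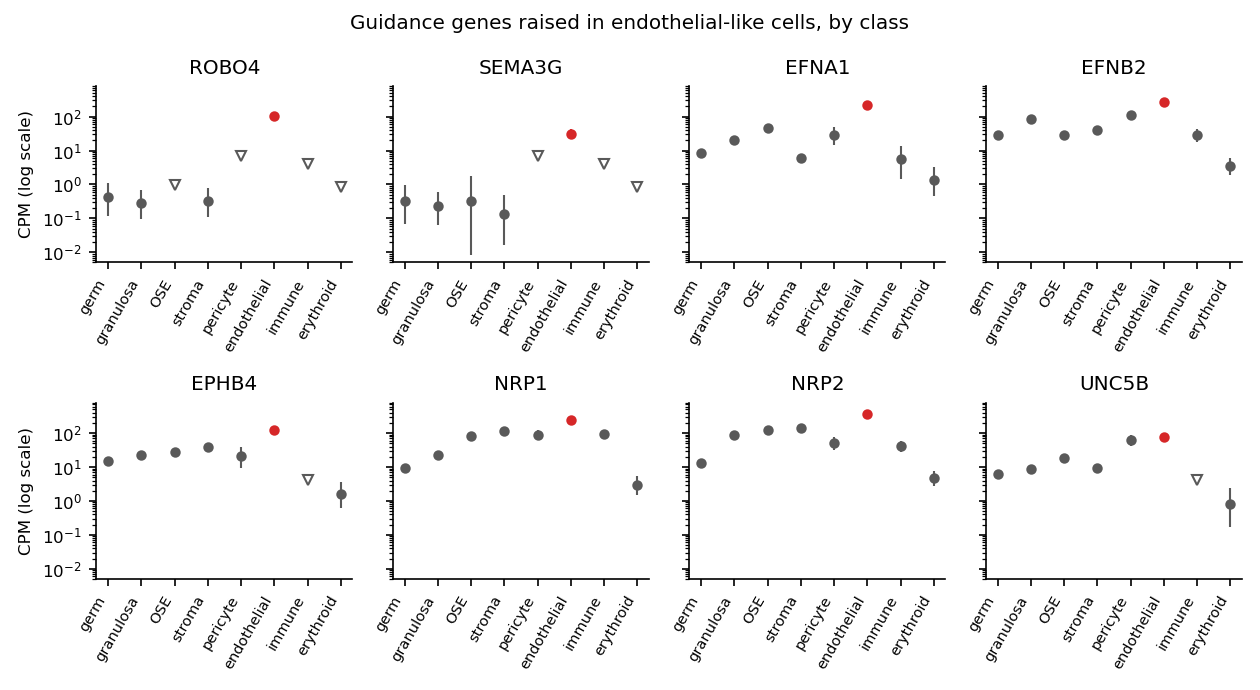
Levels in CPM (log scale) of 8 members called higher in endothelial-like cells (red), by class, with 95% Poisson intervals. Open triangles mark classes with 0 UMIs at the level that 3 counts would give. Where a UMI was seen outside endothelial-like cells, ROBO4 and SEMA3G lie at 0.433 CPM or less, while classes at 0 UMIs allow up to 6.95 CPM, and NRP1 and NRP2 reach 119 and 141 CPM in stroma-like cells.

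Stroma-like cells had 7 members called higher, against 3.71% of all genes: the ligands EFNA5, SEMA3D, SEMA4A, SEMA6A and SLIT3 and the receptors EPHB3 and NRP1. All except SEMA4A were called within both barcode endings. SLIT3, a secreted repellent read by ROBO1 and ROBO2, stood at 61.4 CPM (57.5–65.5) in stroma-like cells, 28.1 CPM (22.5–34.7) in OSE-like and 1.09 CPM (0.658–1.71) in granulosa-like cells. The highest level was that of pericyte-like cells, 97.4 CPM (70.2–132), from 42 UMIs. EFNA5, a lipid-anchored ephrin, had 61.6 CPM (57.7–65.7) in stroma-like cells, then 43.2 CPM (32.5–56.2) in endothelial-like cells, while granulosa-like cells had 6.62 CPM (5.46–7.95). EPHB3 was at 25 CPM (22.6–27.7) in stroma-like and 27.8 CPM (14.4–48.6) in pericyte-like cells, and at 7.19 CPM or less elsewhere. SLIT3 and EFNA5 thus separated stroma-like from granulosa-like cells: both were at least 2-fold lower in the latter.

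The SLIT receptors did not follow their ligand. ROBO2 stood at 68.3 CPM (59.4–78.3) in OSE-like, 55.7 CPM (52.0–59.6) in stroma-like and 51.7 CPM (48.4–55.2) in granulosa-like cells, and ROBO1 at 21.6 CPM (16.7–27.5), 16.4 CPM (14.4–18.6) and 15.5 CPM (13.7–17.4). Neither was called in any class, and stroma-like and granulosa-like cells did not differ in either beyond counting error. Granulosa-like cells therefore had the receptors at stromal level with almost no SLIT3, and SLIT2 was at 1.04 CPM there against 10.6 CPM in stroma-like cells.

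The 2 large stroma-like clusters split by barcode ending. A cluster led by POSTN, LUM and OGN held 1777 cells, 1750 of them with barcodes ending in 1, and a cluster led by GBP1, SPON2 and WFDC1 held 1854 cells, 1853 of them ending in 2. SLIT3 stood at 102 CPM (94.2–111) in the former and 35.7 CPM (31.8–40) in the latter, NRP2 at 226 CPM (214–239) and 86.7 CPM (80.6–93.2), SEMA6A at 124 CPM (115–133) and 71.2 CPM (65.7–77.2), and SEMA5B at 43.9 CPM (38.6–49.7) and 14.9 CPM (12.4–17.8). In these 4 members the POSTN-led cluster was higher. SEMA4A went the other way, with 13.4 CPM and 28.8 CPM. A small proliferating stroma-like cluster led by UBE2C and MKI67 drew on both endings, 68 and 43 cells, and within it SLIT3 stood at 97.7 CPM in barcodes ending in 1 (29 UMIs) and 18 CPM in those ending in 2 (5 UMIs). Cluster and barcode ending cannot be told apart for the 2 large clusters.

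Pericyte-like cells, 110 of 121 with barcodes ending in 2, had 5 members called higher, against 3.89% of all genes. SEMA5B, a transmembrane semaphorin with thrombospondin repeats, stood out at 123 CPM (92.0–161), followed by stroma-like cells with 26.2 CPM (23.7–29.0). UNC5B, SLIT3 and EPHA2 were given above, and SLIT2 was called from 9 UMIs. The stroma list summed to 6896 CPM in pericyte-like and 25220 CPM in stroma-like cells. The part of stromal RNA in the SLIT3 level was not tested. SEMA6A, high in stroma-like and endothelial-like cells, was at 4.64 CPM (0.561–16.7) in pericyte-like cells, from 2 UMIs. All 5 calls held within barcodes ending in 2. No check within barcodes ending in 1 was possible, since only 11 of the cells had them.

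In OSE-like cells, the covering layer of the ovary, 5 members were called higher, against 2.2% of all genes: SEMA3A, SEMA3B, SEMA3D, EFNA1 and PLXNB1. The 3 semaphorins are secreted ligands that bind neuropilins. SEMA3A had 41.5 CPM (34.6–49.4) in OSE-like cells, then 17.3 CPM (10.8–26.2) in endothelial-like cells, while granulosa-like cells had 11.1 CPM (9.6–12.8). SEMA3D reached 82.4 CPM (72.5–93.2) in OSE-like and 56.9 CPM (53.1–60.9) in stroma-like cells, against 12.2 CPM (10.6–14.0) in granulosa-like cells. SEMA3B stood at 65.1 CPM (56.3–74.8) in OSE-like and 50.1 CPM (46.8–53.5) in granulosa-like cells. Each of these semaphorins thus had a different second class. PLXNB1, the receptor of SEMA4D, was at 87 CPM (76.8–98.1) in OSE-like and 39.2 CPM (36.3–42.3) in granulosa-like cells. Of the 5 calls, 4 held in both endings, and SEMA3D, at a log2 ratio of 1.98 and 0.75, held in barcodes ending in 1. EFNA1 fell below 2-fold, at a log2 ratio of 0.80, when cells over 10% mitochondrial UMIs were left out. The granulosa list summed to 721 CPM in OSE-like cells, against 1532 CPM in granulosa-like cells, beside the shared SEMA3B and PLXNB1.

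Granulosa-like cells had 9 members called higher, against 3.25% of all genes: the ligands SEMA3B, SEMA3C, SEMA3F, SEMA4D, SEMA7A and NTN4 and the receptors PLXNB1, PLXNC1 and EPHA4. PLXNC1 and PLXNB1 were called within both endings. The other 7 were called within 1 ending only: SEMA3B, SEMA3C and NTN4 in barcodes ending in 2, and SEMA3F, SEMA4D, SEMA7A and EPHA4 in barcodes ending in 1. The counts also depended on which cells were kept. With no upper limit on genes 3 members were called, and with cells over 10% mitochondrial UMIs left out 7 were, while the class shrank from 4094 to 1045 cells. The shares of all genes called under these limits are not given here.

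PLXNC1, the receptor of SEMA7A, stood at 90.7 CPM (86.3–95.3) in granulosa-like cells and at 46.5 CPM (32.2–65.0) in macrophage and lymphocyte-like cells, the next class. Its level was uneven among granulosa-like clusters. It was at 338 CPM (313–365) in a cluster of 965 cells led by CYP17A1, COL4A3 and INHBB, and at 243 CPM (221–267) in one of 368 cells led by PCP4 and AMH. A cluster of 1750 cells led by SOST had 33 CPM (29.2–37.2) and a cluster of 1011 cells led by LYPD1 had 38.3 CPM (33.3–43.8). The COL4A3 and LYPD1 clusters are both almost wholly of barcodes ending in 2, so this gap of 338 to 38.3 CPM lies within 1 barcode ending. The COL4A3 cluster met 3 of 12 granulosa markers, the fewest that allow a name, and the study uses its leading gene CYP17A1 as a marker of endocrine theca cells. Its median share of mitochondrial UMIs was 48.9%. The AMH cluster had 13.6%, and there PLXNC1 stood at 276 CPM in barcodes ending in 2 and 39.4 CPM, from 10 UMIs, in those ending in 1. With cells over 10% mitochondrial UMIs left out, the log2 ratio of PLXNC1 in granulosa-like cells was 0.94, below 2-fold.

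SEMA7A, the lipid-anchored ligand of PLXNC1, stood at 36.4 CPM (33.7–39.4) in granulosa-like cells and was distributed in the opposite way among their clusters: 57 CPM (51.9–62.4) in the SOST cluster, 22.1 CPM (18.4–26.4) in the LYPD1 cluster, 15.5 CPM (10.5–22.2) in the COL4A3 cluster and 11.5 CPM (7.12–17.6) in the AMH cluster. EPHA4 and SEMA4D had the same order of the SOST cluster over the rest. EPHA4, which can bind ephrins of both types, was at 48.4 CPM (43.7–53.5) in the SOST cluster and 6.47 CPM (4.53–8.96) in the LYPD1 cluster. SEMA4D was at 56.9 CPM in the SOST cluster and between 17.5 and 22.3 CPM in the other 3. Of the SOST cluster's cells 1725 had barcodes ending in 1, and cluster and barcode ending cannot be told apart here.

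SEMA3C and NTN4 were higher in the other clusters. SEMA3C, a secreted semaphorin read by both neuropilins, was at 17.8 CPM (15.0–20.9) in the SOST cluster, 72.3 CPM (65.4–79.7) in the LYPD1 cluster, 105 CPM (91.2–121) in the COL4A3 cluster and 135 CPM (119–153) in the AMH cluster. Within barcodes ending in 1 its ratio of granulosa-like to other cells was below 1, with a log2 value of −0.18, as it was with cells over 10% mitochondrial UMIs left out, −0.15. NTN4, a secreted netrin related to laminins, was at 4.47 CPM (3.13–6.19) in the SOST cluster, and at 39.6 CPM (34.5–45.1), 34.2 CPM (26.4–43.5) and 22.5 CPM (16.1–30.5) in the LYPD1, COL4A3 and AMH clusters. Among granulosa-like cells over 3000 genes it was at 10.4 CPM, and its log2 ratio with no upper limit on genes was 0.08, so the NTN4 call rests on the cells of 200 to 3000 genes. In CPM of all UMIs PLXNB1 was more even, at 38.1, 45.7 and 42.5 CPM in the SOST, LYPD1 and COL4A3 clusters and 20.8 CPM in the AMH cluster. Mitochondrial UMIs count in these totals, with median shares of 10.8%, 16.3%, 48.9% and 13.6% in the same order. They lower every level in the COL4A3 cluster most, and levels without them were not computed.

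**Figure D3:**
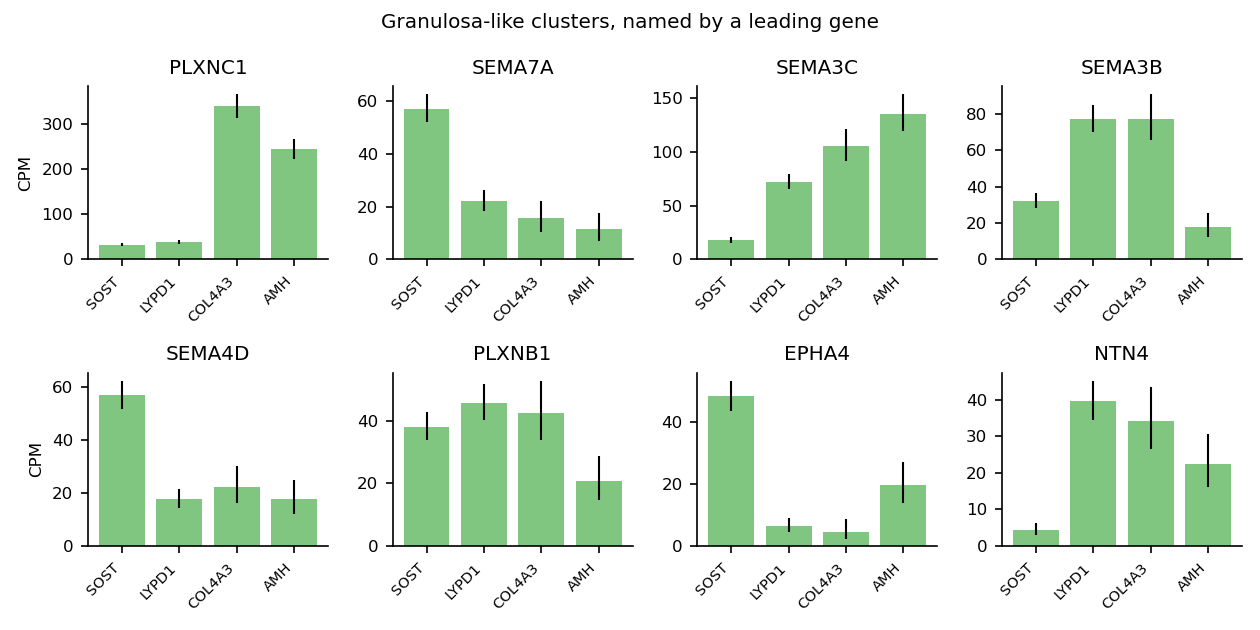
Levels in CPM, from 0, of 8 members in the 4 granulosa-like clusters, each named by a leading gene, with 95% Poisson intervals. PLXNC1 is high in the COL4A3 and AMH clusters, its ligand SEMA7A in the SOST cluster, and SEMA3C and NTN4 are lowest in the SOST cluster.

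**Figure D4:**
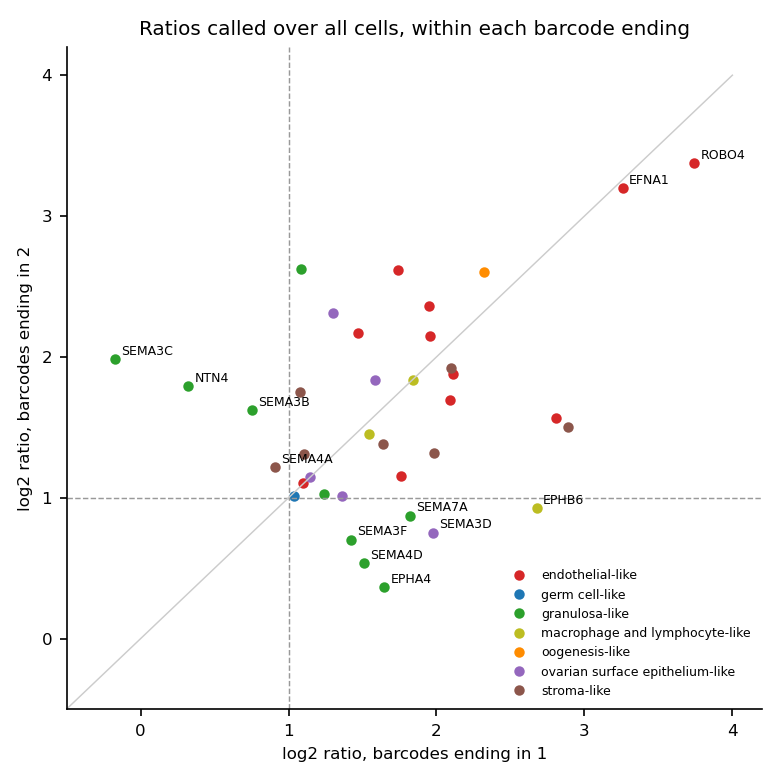
Log2 ratios (10 CPM added) within barcodes ending in 1 (horizontal) and in 2 (vertical) for the 37 of 46 called ratios with a value in both, coloured by class or germ cell step. Dashed lines mark 2-fold; 27 ratios lie beyond both. All 11 endothelial-like ratios do, and the granulosa-like SEMA3C has opposite signs.

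Macrophage and lymphocyte-like cells had 3 members called higher, against 6.84% of all genes, and 16 of 58 at least 2-fold lower, against 11.3%. SEMA4A stood at 49.3 CPM (34.5–68.2) there and at 22 CPM (19.7–24.6) in stroma-like cells. SEMA4D, which lymphocytes are known to carry, stood at 72.6 CPM (54.4–94.9), against 36.3 CPM (33.5–39.3) in granulosa-like cells. EPHB6, an EPH receptor without kinase activity, was at 35.6 CPM (23.3–52.2) from 26 UMIs, and its log2 ratio in barcodes ending in 2 was 0.93. At resolution 1.0 this cluster parted into 132 macrophage-like and 96 lymphocyte-like cells. The macrophage-like cells had NRP1 at 164 CPM (127–209) and SEMA4A at 75.8 CPM (51.2–108), with 11.9 and 17.9 CPM in the lymphocyte-like cells. The lymphocyte-like cells had SEMA4D at 114 CPM (80.3–156) and EPHB6 at 71.7 CPM (45.9–107), with 37.9 and 5.05 CPM in the macrophage-like cells. Among the 20 cells of this class over 3000 genes, EPHB6 and SEMA4D were no longer 2-fold higher than in other such cells.

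Retained germ cell-like cells were poor in these genes. At least 2-fold higher was 1 member, against 10.4% of all genes, and at least 2-fold lower were 14, against 7.58%. The median log2 ratio over the 58 members was −0.62, against 0.03 over all genes. The lower members came from both sides of the signal, among them the receptors NRP1, NRP2, PLXNB1, PLXNC1, ROBO2 and EPHA2 and the ligands EFNB1, SEMA3B, SEMA3C, SEMA3D, SEMA6A, SEMA6D, SEMA7A and SLIT3. Germ cell-like cells had NRP2 at 13.3 CPM (11.1–15.9) and SEMA6D, the semaphorin with the most UMIs, at 7.47 CPM (5.81–9.46), against 48.7 to 77.2 CPM of SEMA6D in granulosa-like, OSE-like, stroma-like, pericyte-like and endothelial-like cells. Germ cell-like cells had a median of 1448.5 UMIs, the fewest of the named classes, and the stroma list summed to 941 CPM in them. How much RNA of other cells entered their counts was not tested. Germ cell-like cells over 3000 genes held 40688370 UMIs in 1763 cells, against 9234310 in the retained ones. More members were called higher in those cells, as given in the last section. The lower members and the median ratio are not given for them.

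SEMA4F, a transmembrane semaphorin, was the member called higher. Its level was 24.3 CPM (21.2–27.7), from 224 UMIs, against 10.1 CPM (6.89–14.4) in OSE-like, 8.01 CPM (6.65–9.58) in stroma-like and 4.89 CPM (3.91–6.05) in granulosa-like cells. The log2 ratio was 1.08, and 1.04 and 1.01 within the endings, so it lay just past 2-fold throughout. When each cell's CPM was averaged instead, it was 0.93. In germ cell-like cells over 3000 genes SEMA4F was at 25.6 CPM, and at 10.4 CPM or less in the somatic classes. With cells thinned to 1000 UMIs, 2.56% (2.01–3.22) of 2772 germ cell-like cells had a SEMA4F UMI and 0.156% of 643 erythroid-like cells, with 1332 and 93 cells too shallow to thin. All cells at full depth gave 4.9% and 0.543%, where the medians were 1448.5 and 4053 UMIs. The erythroid-like shares are again lowered by the erythroid markers, so the CPM of the other classes are the closer comparison.

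A second clustering of germ cell-like cells alone named them by step: 81 mitotic-like cells, with the pluripotency gene NANOG among their leading genes, 1578 that respond to retinoic acid (RA-responsive-like), 768 with meiotic genes (meiotic-like) and 547 with oocyte genes (oogenesis-like), with 1130 unnamed. Each step was compared with the other 3 named steps together. At the minimum of 30 UMIs 29 members could be compared, and 5, or 17.2%, were called higher in at least 1 step, against 19.3% of all genes. The summed level of all members was 556 CPM (495–622) in mitotic-like cells, 314 CPM (297–332) at the RA-responsive-like step and 245 CPM (225–267) at the meiotic-like step, and 424 CPM (388–461) in oogenesis-like cells. It was thus lowest in meiotic-like cells.

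Mitotic-like cells, all with barcodes ending in 1, had 4 members called higher, against 6.6% of all genes. EPHB4 stood at 76.3 CPM (55–103) in them, from 42 UMIs, and the RA-responsive-like step had 15.5 CPM (11.9–19.8), the meiotic-like step 8.3 CPM (4.92–13.1) and the oogenesis-like step 3.2 CPM (0.871–8.19). EFNA1 began at 49 CPM (32.3–71.3) and no later step exceeded 8.1 CPM. EFNA4, another lipid-anchored ephrin, had 54.5 CPM (36.8–77.8) at the mitotic-like and 12.3 CPM (9.11–16.2) at the RA-responsive-like step, and UNC5B 29.1 CPM (16.6–47.2) and 6.38 CPM (4.17–9.35). Of the 4 members, 3 were also called in endothelial-like cells, where 5.63% of all genes tested were. How many of all genes called in mitotic-like cells share that call was not counted, so this overlap has no matched background. ROBO4, which marks endothelial-like cells, had 0 UMIs in the mitotic-like cells, which allows up to 5.45 CPM. Of the 10 endothelial markers, 7 had a UMI there. PECAM1, an adhesion protein of endothelium, moved with these members, at 52.7 CPM (35.3–75.6) in mitotic-like cells and 8.35 to 10.4 CPM at the later steps. CDH5 and KDR were also highest there, at 7.26 CPM (1.98–18.6) and 5.45 CPM (1.12–15.9) from 4 and 3 UMIs, with intervals that overlap those of later steps. KDR was at 5.07 CPM (2.53–9.08) in meiotic-like cells. EGFL7 went the other way, at 41.8 CPM (26.5–62.7) and 124 to 164 CPM later, and VWF was highest at the oogenesis-like step, 386 CPM (352–422). ESAM, at 1.82 CPM (0.046–10.1) from 1 UMI in mitotic-like cells, was highest in meiotic-like cells, 7.84 CPM (4.57–12.6). TIE1 had 1 UMI in each step. CLDN5, EMCN and ERG had 0 UMIs, but at 2.31 CPM or less in every later step they lay under what these 81 cells could show. The part of endothelial RNA in the 4 calls was not tested. The 179 mitotic-like cells over 3000 genes gave EPHB4 at 66 CPM (57.0–76.0), EFNA1 at 39.8 CPM (32.9–47.7), EFNA4 at 33.3 CPM (27.1–40.6) and UNC5B at 16.3 CPM (12–21.7), each above the other steps in such cells. In these cells EFNA4 and UNC5B were just below 2-fold, with log2 ratios of 0.98 and 0.85.

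RA-responsive-like cells had 0 members called higher, against 1.03% of all genes, and meiotic-like cells 0, against 6.64%. EFNB2 was the member with the most UMIs in meiotic-like cells, at 36.4 CPM (28.8–45.4), which overlaps its level of 31.2 CPM (22.2–42.6) in oogenesis-like cells. SEMA4F was flat over the first 3 steps, at 27.2, 28.7 and 27.7 CPM, and at 14.4 CPM (8.53–22.7) in oogenesis-like cells.

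Oogenesis-like cells, whose leading genes include the oocyte genes FIGLA and PADI6, had 1 member called higher, against 5.12% of all genes. That member was NTNG2, coding for netrin-G2, a netrin held to the membrane by a lipid anchor that binds a partner other than the UNC5 receptors. It stood at 110 CPM (92.7–130) in oogenesis-like cells, from 138 UMIs, while the mitotic-like step had 1.82 CPM (0.046–10.1), the RA-responsive-like step 5.16 CPM (3.19–7.88) and the meiotic-like step 0.461 CPM (0.0117–2.57). No somatic class went above 12.3 CPM. Most oogenesis-like cells, 448 of 547, had barcodes ending in 2, where NTNG2 was at 123 CPM. In barcodes ending in 1 it was at 42 CPM, from 8 UMIs in 99 cells, against 0 UMIs in RA-responsive-like cells of that ending.

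The oogenesis-like cells form 2 sub-clusters. In a sub-cluster of 415 cells led by MT1X, ASTL and PADI6 NTNG2 stood at 133 CPM (111–159), and in a sub-cluster of 132 cells led by FIGLA it stood at 47.8 CPM (27.3–77.7). The next sub-clusters were an unnamed one with 15.3 CPM (5.62–33.3), whose interval overlaps that of the FIGLA-led one, and an RA-responsive-like one with 14.5 CPM (7.51–25.4). NTNG2 was higher still in cells over 3000 genes, with 198 CPM (189–206) in 223 oogenesis-like cells, from 1983 UMIs, and 13 CPM (10.2–16.3) in meiotic-like cells. With each cell thinned to 1000 UMIs, 10% (7.06–13.6) of 350 oogenesis-like cells had an NTNG2 UMI, against 0.778% (0.253–1.81) of 643 erythroid-like cells and 0 of 727 meiotic-like cells (up to 0.506%). The unthinned shares were 18.5% in oogenesis-like and 1.36% in erythroid-like cells, at median depths of 1293 and 4053 UMIs, and 197 and 93 cells were left out. Erythroid markers lower the erythroid-like shares here too.

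PLXNC1 and UNC5D, named here after their values were seen, were highest at the oogenesis-like step in cells over 3000 genes. Among retained cells PLXNC1 was not called, and UNC5D, with 19 UMIs over the steps, was under the minimum and not compared. In the deeper cells PLXNC1 was at 34.8 CPM (31.2–38.6) in oogenesis-like cells over 3000 genes and at most 4.03 CPM in the other steps, and UNC5D at 14 CPM (11.7–16.5) and at most 0.449 CPM. Among retained oogenesis-like cells PLXNC1 stood at 16.8 CPM (10.4–25.7) and UNC5D at 9.59 CPM (4.96–16.8), from 21 and 12 UMIs. All 21 PLXNC1 UMIs had barcodes ending in 2, where the oogenesis-like level was 19.8 CPM and RA-responsive-like cells had 12.3 CPM, against 1.64 CPM for RA-responsive-like cells of ending 1. Granulosa-like cells also have PLXNC1, at 90.7 CPM, and whether free granulosa RNA adds to the germ cell value was not tested.

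**Figure D5:**
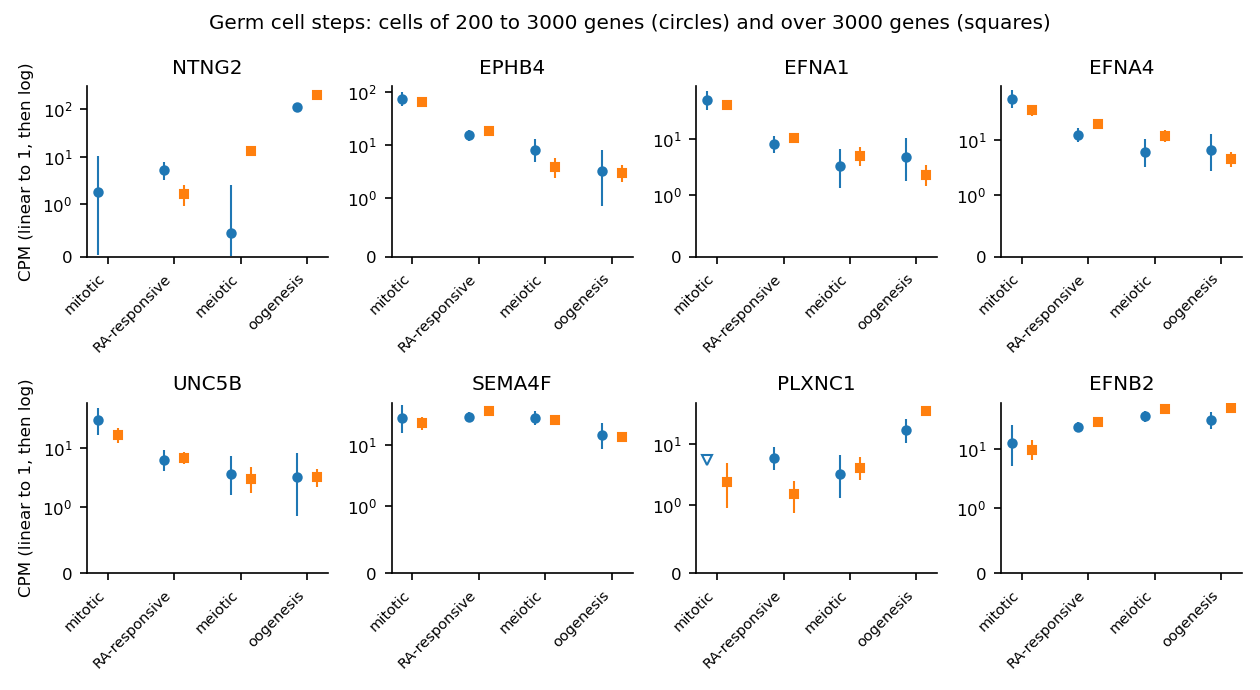
Levels in CPM (linear up to 1, logarithmic above) of 8 members in the 4 germ cell steps, in cells of 200 to 3000 genes (circles) and in cells over 3000 genes (squares), with 95% Poisson intervals. The open triangle marks 0 UMIs at the level of 3 counts. NTNG2 reaches 110 and 198 CPM in oogenesis-like cells, and EPHB4 declines from 76.3 CPM in mitotic-like to 3.2 CPM in oogenesis-like cells.

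The 27 members called in no class included EFNB1, PLXNA1, PLXNA3 and UNC5D. EFNB1, the transmembrane ephrin coded on the X chromosome, stood at 98.1 CPM (81.7–117) in endothelial-like, 79.5 CPM (75.1–84.2) in stroma-like, 78.8 CPM (54.6–110) in pericyte-like and 58.2 CPM (54.7–62.0) in granulosa-like cells, of which the first 3 have overlapping intervals. Within granulosa-like cells EFNB1 was at 20 CPM in the SOST cluster and 103 CPM in the LYPD1 cluster. PLXNA1 and PLXNA3, receptors that pair with neuropilins, were highest in granulosa-like cells, at 36.7 CPM (33.9–39.7) and 37.9 CPM (35.0–40.9), and both were at least 2-fold lower in endothelial-like cells, at 5.5 CPM (2.21–11.3) and 7.85 CPM (3.77–14.4). Endothelial-like cells, where both neuropilins were highest, were thus low in these plexins. No gene here was named PLXND1, so the level of that plexin could not be read. PLXNA2 and PLXNA4, the known receptors of SEMA6A, reached at most 2.94 CPM in any class. UNC5D, the second UNC5 member by UMIs, was at 10.8 CPM (9.28–12.4) in granulosa-like cells and 3.27 CPM or less in other classes, with a log2 ratio of 0.85 once 10 CPM were added to both sides.

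Of 58 members, the leading class was endothelial-like in 15, granulosa-like and OSE-like in 12 each, pericyte-like in 8, stroma-like and germ cell-like in 4 each and macrophage and lymphocyte-like in 3. How often each class leads over all genes was not counted, so these numbers have no background. In 35 the interval of the ratio to the second class lay above 1. For the others the first place does not stand beyond counting error, among them UNC5B, EPHA4, SEMA7A, NTN4, SEMA6D and NTNG2.

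Genes that act with these families were read from lists of partners and effectors, 50 of 52 of them in the table and 48 with enough UMIs. The shares of all genes called higher in the same class stand in brackets. Outside endothelial-like and pericyte-like cells the counts lie near or under those shares. Endothelial-like cells had 8 called higher (against 5.63%), pericyte-like cells 5 (3.89%) and germ cell-like cells 4 (10.4%). Macrophage and lymphocyte-like cells had 3 (6.84%), granulosa-like cells 2 (3.25%), OSE-like cells 1 (2.2%), stroma-like cells 1 (3.71%) and erythroid-like cells 0 (0.379%). In endothelial-like cells these included FYN, a kinase downstream of semaphorin receptors, at 103 CPM (86.0–122), the ephrin-cleaving protease ADAM10 at 56.5 CPM (44.2–71.2) and the actin regulator VASP at 121 CPM (103–142). In granulosa-like cells they were DPYSL3, of the family that relays semaphorin signals to the cytoskeleton, at 213 CPM (206–220), where stroma-like cells had 78.4 CPM, and MICAL2 at 23.8 CPM (21.5–26.2). OSE-like cells had the netrin receptor NEO1 at 71.6 CPM (62.4–81.7).

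In germ cell-like cells 4 of 48 effectors were called higher, FARP2, NCK1, RASA1 and PTK2, a share near the 10.4% of all genes. At least 2-fold lower were 4, against 7.58%. FARP2, a guanine exchange factor known from semaphorin signalling, had 47 CPM (42.7–51.6) there and 9.27 CPM or less in other classes. It peaked at the meiotic-like step, 117 CPM (103–132), where the mitotic-like step had 5.45 CPM (1.12–15.9), the RA-responsive-like step 24.6 CPM (20–29.9) and the oogenesis-like step 10.4 CPM (5.53–17.8). It was the effector called higher in meiotic-like cells, where no member was. Of the 40 effectors compared across steps, 5 were called higher in mitotic-like cells, against 6.6% of all genes, and 2 lower, against 11.8%. Oogenesis-like cells had 3 higher, against 5.12%, and 2 lower, against 5.05%. Meiotic-like cells had 1 higher, against 6.64%, and 5 lower, against 5.22%. The higher ones were SRGAP1, VASP, DPYSL3, NGEF and PAK2 in mitotic-like and VAV3, TIAM1 and NCK2 in oogenesis-like cells. SRGAP1, which acts below ROBO receptors, began at 87.2 CPM (64.3–116), and no later step exceeded 15.5 CPM. These genes have other uses in the cell, and their levels are not a measure of guidance signalling.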

How the data were processed

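The authors dissociated both ovaries of 1 fetus per stage, prepared 3′ libraries and, per the labels and the paper's methods, made the counts with Cell Ranger 3.0.2 on the genome Macaca_fascicularis_5.0. Deposited was 1 table of unnormalized UMI counts, genes by cells, for both libraries. It contains cells over 3000 genes, although the methods retain 200 to 3000. Counts were normalized and clustered here in Seurat 5.3.0 (R 4.3.3, Matrix 1.6.5) on 1987 variable genes, 13 members left out, with 18 components, 20 neighbours and resolution 0.6. Germ cell-like cells were clustered again into at least 11 sub-clusters.

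A cluster name required 3 markers, each detected in 5% of its cells and 1.5 times higher than outside it (10 CPM added). The name was withheld where another class had more such markers, where 2 or more of the 10 leading genes, and more than for its own class, marked another class, or where the cells were shallow with no leading marker. Chosen after the clusters were seen were 2 rules: the joint name for a cluster that met the macrophage and lymphocyte lists equally, and withholding a germ cell step name from sub-clusters led by markers of somatic cells. A granulosa-like cluster has the stress genes EGR4 and DUSP2 among its leading genes, a stroma-like one the immune genes GBP1 and IFIT2. The study's own cell labels were not used here, and names may differ from them.

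Ratios and exact intervals were computed in Python 3.11.15 (numpy 2.4.6, scipy 1.17.1, pandas 2.3.3), doublet scores with scanpy 1.11.5 and figures with matplotlib 3.10.9. The intervals, the comparison and the thinning were tested on simulated data. Barcodes ending in 1 gave 8716 retained cells (median 2470 UMIs), those ending in 2 gave 7576 (median 2964 UMIs). With 1 library per stage no test between groups was made, and results by stage were left out. Named genes were up to 6 members per class or step called higher with at least 10 UMIs, the 2 members per family with the most UMIs, and their ligand or receptor partners. Others that are named, such as ROBO3, SLIT2 in pericyte-like cells and the members lower in a class, were chosen after their values were seen. The members and lists were chosen with earlier results of these data known. Alternatives were other limits on cells, other clusterings, removal of the 8% of cells with the highest doublet scores, each barcode ending alone, 5 or 20 CPM added, no minimum of UMIs, a mean over cells, and thinning to 2000 UMIs or none. Chosen after seeing the data were the cells over 3000 genes alone and the comparison without unnamed cells. No sequence is shown, since none was used here.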

Additional observations from a re-analysis of the deposited data

How the results depend on the processing

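Of the 46 ratios called, all remained at least 2-fold at resolutions 0.4 and 1.0, with 30 components and with members kept among the variable genes. The same held without the 8% highest doublet scores and without unnamed cells. Dropping the minimum of UMIs changes which genes are compared and not their ratios, so it could not move any of the 46. With no upper limit on genes 36 of 46 did, with at most 10% mitochondrial UMIs 39, with 20 CPM added 31, as a mean over single cells 43, in barcodes ending in 1 37 of 41 and in those ending in 2 36 of 42, and in cells over 3000 genes 27 of 41. SEMA3C in granulosa-like cells changed direction, to −0.15 with at most 10% mitochondrial UMIs and −0.18 in barcodes ending in 1.

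The number of members called higher moved by over 1.5 times as follows. The share of all genes called under each setting is not given beside these counts, so they are not read as results about the members. In germ cell-like cells 1 became 2 with no upper limit, with members kept and in barcodes ending in 2, 3 with 5 CPM added or in cells over 3000 genes, and 0 with 20 CPM. In granulosa-like cells 9 became 3 with no upper limit, in cells over 3000 genes and with 20 CPM, and 15 with 5 CPM. In OSE-like cells 5 became 3 with 20 CPM. In stroma-like cells 7 became 12 in barcodes ending in 1 and with 5 CPM. In pericyte-like cells 5 became 8 with no upper limit, and in macrophage and lymphocyte-like cells 3 became 5 in barcodes ending in 1. In mitotic-like cells 4 became 7 with 5 CPM, in RA-responsive-like cells 0 became 1 in barcodes ending in 2, and in oogenesis-like cells 1 became 3 with no upper limit, with 5 CPM and in cells over 3000 genes, and 2 with members kept, in barcodes ending in 1 and as a mean over cells. The smaller CPM constant lets low genes pass; the other causes were not tested. Within barcodes ending in 1 NTNG2 was under the minimum of 30 UMIs. Groups under 20 cells gave no value: pericyte-like cells in barcodes ending in 1 and over 3000 genes, erythroid-like cells over 3000 genes and mitotic-like cells in barcodes ending in 2. Depth limits the small classes most: 3 counts equal 6.95 CPM in pericyte-like and 5.45 CPM in mitotic-like cells.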
